A study of Mus musculus with 8 samples.

Results

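The 9 genes described here encode receptors and transporters for fatty acids and related metabolites: Ffar2, Ffar3, Ffar1, Ffar4, Gpr119, Hcar2, Gpbar1, Slc16a1 and Slc5a8. They were chosen by symbol, as a family around the gene deleted in the study, and all 9 were matched to 1 identifier each among the 56980 gene identifiers of the count tables. RNA sequencing had been performed on jejunal mucosal scrapings from 4 floxed controls (FFA2 fl/fl) and 4 Adipoq-F2-KO mice. The study asked whether loss of FFA2 in fat altered gene expression in the segment of gut where dietary fat is absorbed. All mice were male littermates, housed together, raised on chow to 12 weeks of age and then given a Western diet with 10% fructooligosaccharides (FOS), a fermentable fiber, for 2 weeks in thermoneutral housing. Both genotypes carried the floxed Ffar2 allele. The Adipoq-F2-KO mice also carried Cre recombinase under the adiponectin promoter, which is active in adipocytes, so Ffar2 in the gut was not the target and its jejunal count is no check of the deletion. Mice with Cre and an intact Ffar2 gene were not analysed here, so Cre and the deletion cannot be told apart.

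Short-chain fatty acids are made by gut bacteria from fermentable fiber and reach host cells through receptors at the cell surface and through transporters. FFA2 and FFA3, encoded by Ffar2 and Ffar3, are G protein-coupled receptors for acetate, propionate and butyrate, and are known from hormone-secreting enteroendocrine cells, with FFA2 also found in neutrophils and adipocytes. FFA1 and FFA4 respond to medium- and long-chain fatty acids, GPR119 to lipid amides and monoacylglycerols, HCAR2 to 3-hydroxybutyrate, butyrate and niacin, and GPBAR1 (TGR5) to bile acids. MCT1, encoded by Slc16a1, carries lactate, ketone bodies and short-chain fatty acids together with protons, and SMCT1, encoded by Slc5a8, carries monocarboxylates together with sodium.

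Total counts ranged from 6007654 to 21712776 per library. Floxed control 3 and Adipoq-F2-KO 3 and 4 held fewer than 10000000 counts, and the same 3 libraries stood apart in tissue content. They held 250, 70 and 501 counts of Fabp6, the ileal bile acid-binding protein, against 1 to 5 in the other 5, and 59, 27 and 12 counts of Adipoq against 0 to 3. Enterocyte markers such as Vil1 were abundant in every library, and the colonic markers Car1 and Hoxd13 were at 0 in every library. Values of the 9 genes that rest on those 3 libraries are therefore given with and without them.

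Ffar2, Ffar3 and Ffar1 lie in a row on the minus strand of chromosome 7 in assembly GRCm38, at chr7:30818348-30823775, chr7:30854330-30856178 and chr7:30857390-30861564, within 43.2 kb. Each has its whole protein in 1 coding exon, and the coding sequences of Ffar2 and Ffar3 were identical at 59.0% of aligned bases. The reads of 75 bases had to be assigned to 1 of these related genes, so the most similar stretch of the pair is shown, read 5′ to 3′ along the coding strand from GENCODE M21 transcripts. The Ffar2 stretch lies at chr7:30819903-30819977 and the Ffar3 stretch at chr7:30855677-30855751, and capitals mark the bases that differ.
Ffar2: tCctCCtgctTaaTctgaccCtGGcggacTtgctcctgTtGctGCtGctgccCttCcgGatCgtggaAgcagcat
Ffar3: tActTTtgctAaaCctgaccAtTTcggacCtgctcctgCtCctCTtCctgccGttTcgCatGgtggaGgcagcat
The stretches shared 56 of 75 bases and differed at 19. Slc5a8 (chr10:88885992-88929515, plus strand, 15 coding exons) was compared in the same way with Slc5a12, the low-affinity sodium-coupled carrier of the same family, because Slc5a12 was far more abundant in these libraries. Their most similar stretch lies at chr10:88886478-88886552 in Slc5a8 and at chr2:110597761-110597835 in Slc5a12.
Slc5a8: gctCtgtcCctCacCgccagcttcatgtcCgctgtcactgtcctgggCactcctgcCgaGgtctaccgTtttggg
Slc5a12: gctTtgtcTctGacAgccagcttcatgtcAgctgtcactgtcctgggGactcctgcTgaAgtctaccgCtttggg
This pair differed at 9 of 75 bases. No run of 75 bases in the transcripts of any of the 9 genes also occurred in a transcript of another gene. Slc16a1 (chr3:104638668-104658462, plus strand) has 2 small genes within its introns that share no exon bases with it, and the other 8 genes overlapped no annotated gene.

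Among the short-chain fatty acid receptors, Ffar2 was close to the limit of detection in each genotype. Raw counts were 12, 18, 2 and 11 in floxed controls 1 to 4, and 13, 12, 6 and 3 in Adipoq-F2-KO 1 to 4. Normalized counts (raw counts divided by the size factor of the library) averaged 7.36 ± 2.31 in floxed controls and 8.84 ± 2.85 in Adipoq-F2-KO mice (SD, n = 4 each), and the genotypes overlapped. The fitted fold change was 1.13 with a 95% confidence interval from 0.531 to 2.42 (DESeq2, log2 fold change 0.18, SE 0.56, adjusted p = 0.9998, exact permutation p = 0.486). At 43 reads in all floxed controls and 34 in all Adipoq-F2-KO mice, a doubling of jejunal Ffar2 lay inside this interval and a halving just below it. In the 5 deeper libraries alone the log2 fold change of Ffar2 was 0.06 ± 0.66 (SE).

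Ffar3, its neighbour on chromosome 7, gave more reads than Ffar2 in 7 of 8 libraries and as many in the other. Raw counts of Ffar3 were 20, 41, 9 and 11 in the floxed controls and 26, 23, 16 and 13 in the Adipoq-F2-KO mice. Normalized counts were 12.1, 21.6, 18.8 and 8.51 against 20.5, 14.3, 32.0 and 24.4. The 2 Adipoq-F2-KO libraries that exceeded every floxed control were Adipoq-F2-KO 3 and 4, the ones under 10000000 counts, and the other 2 lay within the control range. The fold change was 1.46 with an interval from 0.786 to 2.71 (DESeq2, log2 fold change 0.54, SE 0.46, adjusted p = 0.9998, exact permutation p = 0.171), and in the 5 deeper libraries alone the log2 fold change was 0.28 ± 0.60 (SE). The ratio of Ffar3 to Ffar2 normalized counts ran from 1.00 in floxed control 4 to its highest value in floxed control 3, where Ffar2 had 2 reads.

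Ffar1, the third gene of the cluster and a receptor for medium- and long-chain fatty acids, had 24, 47, 17 and 36 reads in floxed controls and 17, 54, 14 and 12 in Adipoq-F2-KO mice. Both the lowest and the second-highest normalized count, 13.4 and 33.5, came from Adipoq-F2-KO libraries, so the genotypes overlapped over nearly their whole range. The log2 fold change was -0.03 with an SE of 0.42 (DESeq2, adjusted p = 0.9998, exact permutation p = 0.80). Its sign changed under 5 of the 17 alternative settings, so no direction is given for Ffar1.

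Ffar4, the long-chain and omega-3 fatty acid receptor on chromosome 19, had 17, 22, 7 and 16 reads in floxed controls and 11, 26, 6 and 15 in Adipoq-F2-KO mice. Its normalized counts were close together in floxed controls, at 12.2 ± 1.82 (SD, n = 4). They were more spread in Adipoq-F2-KO mice, at 16.3 ± 8.53, where Adipoq-F2-KO 4 alone reached 28.2 and Adipoq-F2-KO 1 was the lowest of all at 8.68. The fold change of 1.31 had an interval from 0.683 to 2.53 (DESeq2, adjusted p = 0.9998, exact permutation p = 0.571). Without Adipoq-F2-KO 4 the log2 fold change of Ffar4 was 0.05, and in the 5 deeper libraries it was 0.13 ± 0.59 (SE).

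Gpr119, a receptor on enteroendocrine cells that responds to products of fat digestion, was detected at 8, 3, 2 and 10 reads in floxed controls and 3, 6, 2 and 2 in Adipoq-F2-KO mice. With at least 10 reads in 1 library it did not pass the filter of 10 reads in 4 libraries and was not tested with the other genes. Gpr119 normalized counts ranged from 1.58 to 7.74 in floxed controls, and the Adipoq-F2-KO libraries, at 2.37 to 4.00, all fell inside that range.

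Gpbar1, the bile acid receptor, had 1, 4, 4 and 3 reads in floxed controls and 5, 4, 2 and 1 in Adipoq-F2-KO mice, or 12 in each genotype. This gene also failed the filter. Its highest normalized count, 8.36, was that of floxed control 3 and rested on 4 reads.

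Hcar2 had 1, 2, 2 and 1 reads in floxed controls and 0 in each Adipoq-F2-KO library. It was the one gene of the 9 whose genotypes did not overlap, and the exact permutation test gave p = 0.0286 (two-sided, n = 4 each), the smallest value that 4 against 4 libraries can give, in 1 of 9 such tests. All 8 values lay under the floor of 3 reads, so no fold change is given. Summed by genotype, Hcar2 had 6 reads in the 62274244 counts of the floxed controls and 0 in the 46004660 counts of the Adipoq-F2-KO libraries, which allows up to 3 reads there. Among 16666 genes that had a read but failed the filter, 1.26% showed non-overlap of the same kind, and among the 15986 tested genes 2.12%. The floors cover counting error only, since the reads carried no molecular identifiers, while the DESeq2 intervals also cover the spread between libraries.

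**Figure D1:**
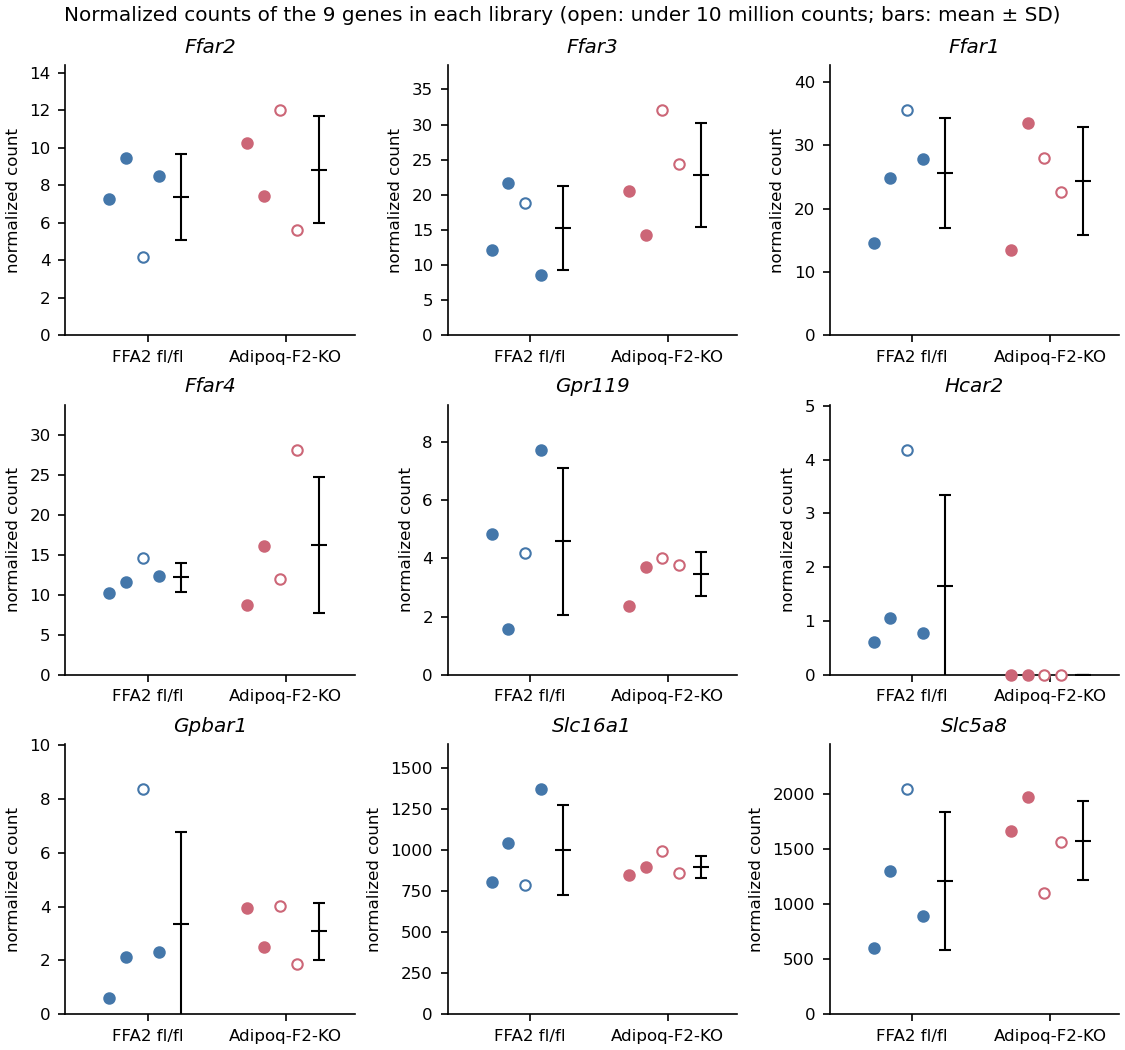
Normalized counts (vertical axes, from 0, each panel on its own scale) of the 9 genes in each floxed control (blue) and Adipoq-F2-KO library (red), in order of library number from left to right. Open points are the 3 libraries under 10000000 counts and black bars the mean ± SD, cut off at 0 where they pass below it. Only in the Hcar2 panel do the genotypes not overlap, at 0.606 to 4.18 against 0 normalized counts.

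The 2 transporters were expressed well above the receptors. To compare genes, counts were divided by exon length and library total, giving counts per kb of exon per 1000000 counts (RPKM). On this scale the level of Slc5a8 was 21.9 ± 8.02 (SD, n = 8) and that of Slc16a1 was 18.0 ± 3.74, and their ranges overlapped, so their order is not resolved. The lowest Slc16a1 library, at 14.1, was above the highest value of any receptor, 1.64 for Ffar4. Ffar3 and Ffar4 followed at 0.861 ± 0.32 and 0.851 ± 0.35, then Ffar1 at 0.503 ± 0.16. Gpbar1 and Ffar2 were level with each other at 0.247 ± 0.17 and 0.245 ± 0.076, followed by Gpr119 at 0.149 ± 0.067 and Hcar2 at 0.0351 ± 0.059. From Ffar3 downward the ranges of all neighbours in this order overlapped. The transporters made up 91.1% to 94.6% of the summed level of the 9 genes in each library, while the 7 receptors together gave 43 to 137 reads. Against 17649 protein-coding genes with at least 1 read, the mean level of Slc5a8 was higher than that of 90.4% of genes and Slc16a1 than 88.4%. The receptors stood between 13.3% for Hcar2 and 43.8% for Ffar3.

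**Figure D2:**
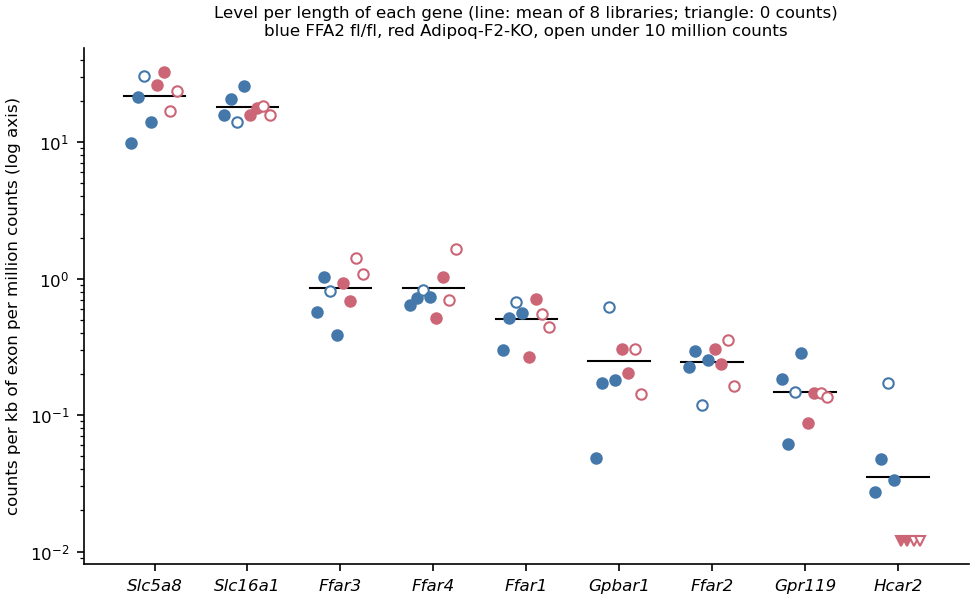
Level of each gene in RPKM (vertical log axis), ordered by the mean over 8 libraries (black lines). Points are libraries, blue for floxed controls and red for Adipoq-F2-KO, open under 10000000 counts, and triangles at the bottom mark 0 counts. Both transporters lie at or above 9.78 in every library and every receptor value is at or below 1.64.

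Slc5a8 was the most variable of the well-measured genes. Its normalized counts were 603, 1301, 2045 and 894 in floxed controls 1 to 4 and 1666, 1974, 1105 and 1568 in Adipoq-F2-KO 1 to 4. Both the lowest and the highest value belonged to floxed controls, and all Adipoq-F2-KO values lay between them. The means were 1211 ± 626 and 1578 ± 359.8 (SD, n = 4 each), and the fold change of 1.31 had an interval from 0.852 to 2.005 (DESeq2, log2 fold change 0.39, SE 0.31, adjusted p = 0.9998, exact permutation p = 0.314).

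This value turned on floxed control 3, a library with Fabp6, Adipoq and smooth muscle transcripts. Without floxed control 3 the log2 fold change of Slc5a8 was 0.76 ± 0.25 (SE, DESeq2, unadjusted p = 0.00198, adjusted p = 0.129). In the 5 libraries over 10000000 counts it was 0.96 ± 0.30 (unadjusted p = 0.00117, adjusted p = 0.113), and the 2 Adipoq-F2-KO values, 1666 and 1974, lay above the 3 controls, 603 to 1301. Of all tested genes, 23.6% showed non-overlap in either direction in those 5 libraries. Without floxed control 1, the lowest library, the log2 fold change was 0.16. Slc5a8 did not pass the adjusted threshold under any setting.

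Slc10a2, the ileal bile acid transporter, reached 330, 268 and 415 normalized counts in floxed control 3 and Adipoq-F2-KO 3 and 4 against 30.0 to 78.2 elsewhere. In the same 3 libraries Slc5a8 stood at 2045, 1105 and 1568, so they held both the highest Slc5a8 value of all and the lowest of the Adipoq-F2-KO mice. Acta2, a smooth muscle actin, was at 3938 normalized counts in floxed control 3 and at 37.1 to 1245 in the other libraries. With a smooth muscle marker score as a covariate the log2 fold change of Slc5a8 was 0.49 ± 0.21 (SE, DESeq2, unadjusted p = 0.0205, adjusted p = 0.9996). The part of the ileal and adipocyte transcripts in the Slc5a8 difference was not tested.

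Slc16a1 was steadier. Its normalized counts were 805, 1042, 784 and 1368 in floxed controls and 845, 894, 993 and 857 in Adipoq-F2-KO mice, so that all Adipoq-F2-KO values fell within the control range. The means were 999.7 ± 272 and 897 ± 67.2 (SD, n = 4 each). The fold change was 0.895 with an interval from 0.697 to 1.149 (DESeq2, log2 fold change -0.16, SE 0.18, adjusted p = 0.9998, exact permutation p = 0.686). Floxed control 4 carried the negative sign, since leaving it out gave Slc16a1 a log2 fold change of 0.03. In the 5 deeper libraries it was -0.30 ± 0.23 (SE). The per-length ratio of Slc5a8 to Slc16a1 was 0.622, 1.04, 2.17 and 0.542 in the floxed controls and 1.64, 1.83, 0.924 and 1.52 in the Adipoq-F2-KO mice, and the genotypes overlapped.

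**Figure D3:**
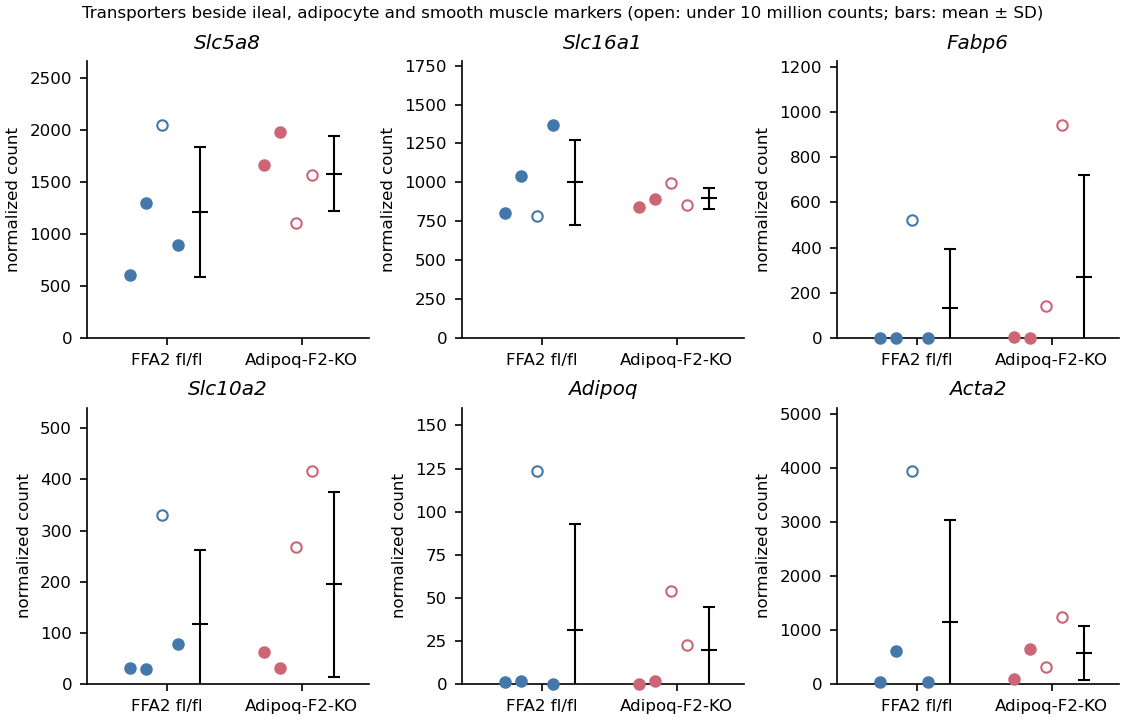
Normalized counts (vertical axes, from 0) of both transporters beside Fabp6 and Slc10a2 (ileum), Adipoq (adipocyte) and Acta2 (smooth muscle), by genotype and library. Open points are the libraries under 10000000 counts and bars the mean ± SD, cut off at 0. The open points hold nearly all Fabp6 and Adipoq, and floxed control 3 is highest for Slc5a8, Adipoq and Acta2.

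Across all genes, 6 of 15986 tested genes passed an adjusted p of 0.05 between the genotypes (DESeq2), or 0.0375%. Of the 9 genes, 6 passed the count filter and 0 of these 6 were called by DESeq2, 0 by edgeR's quasi-likelihood test and 0 by limma-voom. At an unadjusted p under 0.05 the counts were also 0 of 6 for each of the 3 tools. DESeq2 put 3.03% of all tested genes under that p, so its count of 0 of 6 does not set these genes apart. That share is not given for edgeR and limma-voom, so nothing is read from their counts. Slc16a1 had the narrowest interval, given above. For the 4 receptors tested, the upper bounds ran from 1.74-fold for Ffar1 to 2.71-fold for Ffar3 and the lower bounds from 0.531-fold for Ffar2 to 0.786-fold for Ffar3, so the test does not show that their levels were alike. Over every tested gene the median was -0.007 on the log2 scale.

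**Figure D4:**
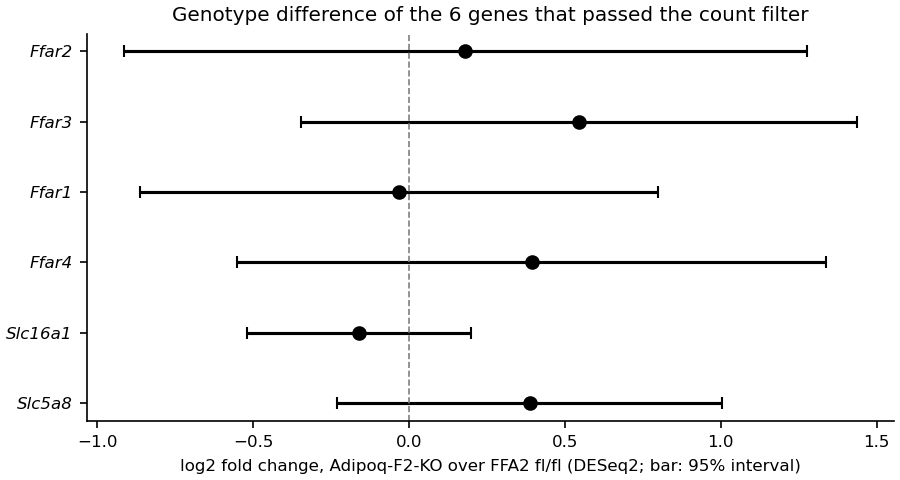
Log2 fold change (horizontal axis, Adipoq-F2-KO over floxed controls, DESeq2) of the 6 genes that passed the count filter, with 95% confidence intervals as bars. Every interval includes 0, and those of the 4 receptors are wider than those of Slc5a8 and Slc16a1.

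**Figure D5:**
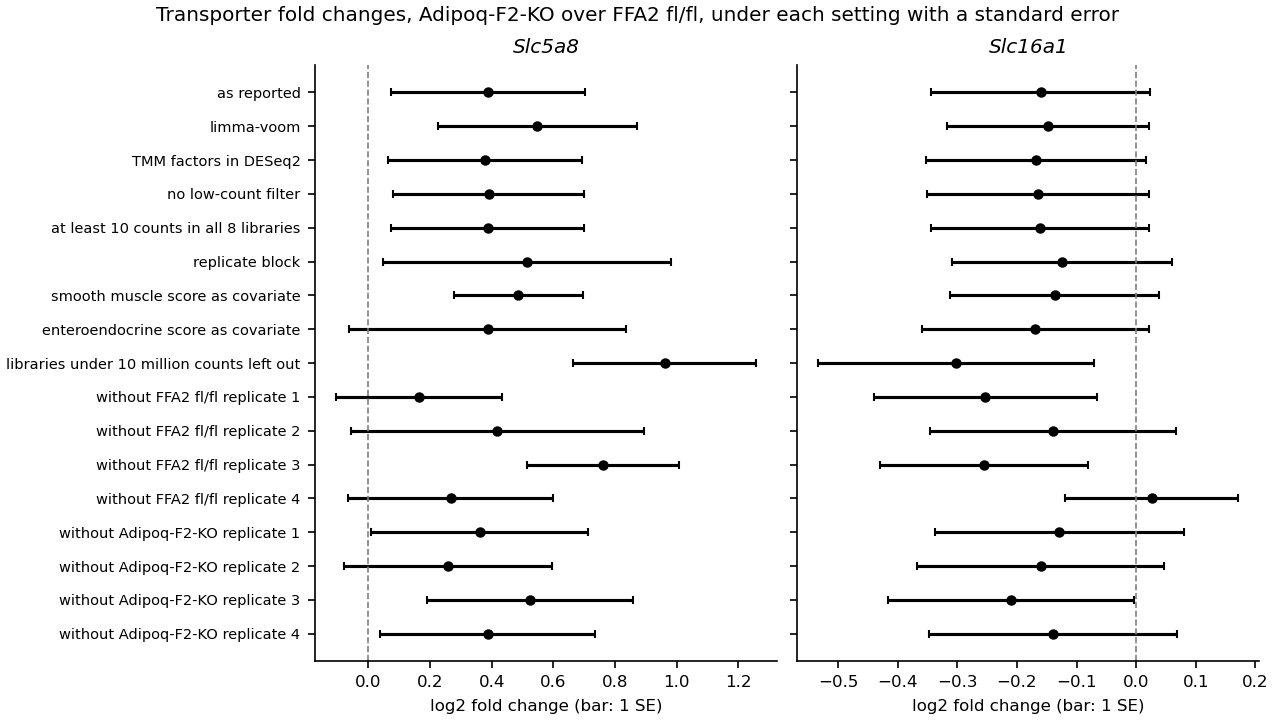
Log2 fold change (horizontal axes, Adipoq-F2-KO over floxed controls, bars 1 SE) of Slc5a8 and Slc16a1 under each setting that gives a standard error (vertical axis). Slc5a8 runs from 0.16 without floxed control 1 to 0.96 in the libraries over 10000000 counts. Slc16a1 stays below 0 except without floxed control 4.

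The genes beside the receptor cluster on chromosome 7 were looked at because the floxed allele lies there in both genotypes. Krtdap and Hamp2 were at 0 in all 8 libraries, and Dmkn and Mag had at most 6 reads in any library. Sbsn had 5 to 16 reads (log2 fold change -0.43, SE 0.55, adjusted p = 0.9998 by DESeq2). Cd22, a B cell gene, had 5 to 174 reads (log2 fold change 1.19, SE 1.02, adjusted p = 0.9998). Neither of the 2 neighbours tested, nor Ffar2, Ffar3 or Ffar1 between them, passed the threshold.

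Of 19 other receptors for metabolites and nutrients, 10 were tested, and 0 rose or fell at an adjusted p of 0.05 (DESeq2). Their median log2 fold change was -0.07. P2ry2, a nucleotide receptor, had the smallest p, with 613 ± 114 normalized counts in floxed controls and 449 ± 60.6 in Adipoq-F2-KO mice (log2 fold change -0.45, unadjusted p = 0.00691, adjusted p = 0.9998, and -0.44 without floxed control 3), followed by the sweet and umami taste subunit Tas1r3 at -0.32. Lpar5, the lysophosphatidic acid receptor, was the most abundant at 25.8 ± 3.23 RPKM. Hcar1, the lactate receptor beside Hcar2, had 1 to 6 reads per library, and the succinate receptor Sucnr1 had 4 to 17. Olfr78, another receptor for short-chain fatty acids, had at most 3.

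Of 13 other monocarboxylate carriers and their chaperones, 12 were tested and 0 passed the threshold, with a median of -0.21. Slc16a5, a carrier of the same family as MCT1, had the smallest unadjusted p, 0.019, at a log2 fold change of -0.41. Without floxed control 3 it was called, at -0.55 (DESeq2, adjusted p = 0.0124), in a fit that called 0.684% of 15800 genes, and in the 5 deeper libraries it was not, at -0.50 (adjusted p = 0.225). The chaperone embigin, Emb, stood at 0.39. Bsg (basigin, the chaperone that brings MCT1 to the membrane) was the most abundant, at 256.5 ± 13.6 RPKM, and its normalized counts were 5404 ± 313 in floxed controls and 5693 ± 536 in Adipoq-F2-KO mice. Slc5a12 was at 148.8 ± 33.6 RPKM against 21.9 for its relative Slc5a8, and its log2 fold change was -0.08 (SE 0.19).

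Of 15 enzymes that activate or oxidize short-chain fatty acids or handle ketone bodies, 14 were tested and 0 passed the threshold, with a median of -0.02. Pccb, a subunit of propionyl-CoA carboxylase, stood at a log2 fold change of -0.17. Hadh was the most abundant at 141 ± 15.3 RPKM. Of 22 G proteins, arrestins and effector enzymes through which the receptors signal, 21 were tested and 0 passed the threshold, with a median of 0.03. Adcy3, an adenylyl cyclase, stood at -0.66 (unadjusted p = 0.0286, adjusted p = 0.9998) and shares 1380 exon bases with Cenpo on the opposite strand. Gnas, the stimulatory G protein, stood at -0.29 and shares exon bases with Nespas and Gm20721, so both values are uncertain without the strand setting of the counting. Gna11, a G protein that couples FFA1 and FFA4, was the most abundant as counted, at 198.6 ± 27.9 RPKM. The level of Gnas, 0.743 ± 0.0998 RPKM, carries the same limit as its fold change. For these 4 lists the smallest adjusted p in all 8 libraries was 0.9998. Without floxed control 3 the medians were -0.12 for the other receptors (4 of 10 above 0, against 1 of 10 with it), -0.21 for the carriers, -0.06 for the enzymes and 0.13 for the G proteins and effectors (17 of 21 above 0, against 12 of 21 with it). Emb, Slc16a5 and Tas1r3 also share exon bases with a gene on the opposite strand (686, 104 and 36), so their values carry the same limit as those of Adcy3 and Gnas.

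The receptors are known from few cells of the mucosa, so marker levels are given beside them. In bulk tissue, fewer cells of a type and less RNA per cell cannot be told apart. Enteroendocrine markers, the cells in which Ffar1, Ffar2, Ffar3, Ffar4 and Gpr119 are known, summed to 3736 to 4582 normalized counts in floxed controls and 3182 to 4667 in Adipoq-F2-KO mice. Of the 20 markers 18 were tested, 15 fitted below 0 and 3 above with a median log2 fold change of -0.11, and 0 passed the threshold. Without floxed control 3, 11 fitted below 0 and 7 above with a median of -0.08, and in the 5 deeper libraries the median was -0.21. Gcg stood at -0.21 and Pyy at -0.08, and the colonic hormone Insl5 was at 0 in every library. Neutrophil markers, of cells that express Ffar2 and Hcar2, were nearly absent: S100a8 was at 0 in all 8 libraries, S100a9 at 0 in 7, and the 7 markers summed to at most 15.04 normalized counts. Macrophage markers, also known for Hcar2 and Gpbar1, summed to 222 to 623 in floxed controls and 443 to 793 in Adipoq-F2-KO mice, with 9 of 10 fitted above 0, a median log2 fold change of 0.54 and 0 called. The log2 fold changes of Adgre1 and Cd68 were 0.67 and 0.27. Adipocyte markers summed to 32.5 to 1173 and 44.2 to 488.5, and 4 of 8 were tested, all fitted below 0, and 0 called, without Adipoq and Plin1, which failed the filter. Smooth muscle markers summed to 3743 to 28231 and 4091 to 11609, all 8 fitted below 0 with a median of -0.94 and 0 called (Acta2 -1.01, Myh11 -0.97). Floxed control 3 alone held the control maximum of both lists. Without it 7 of 8 smooth muscle markers fitted above 0 with a median of 1.15 and 3 of 3 adipocyte markers above 0 with a median of 2.98, and 0 were called, so neither list has a direction that holds without that library. Among the rest 0 were called: the medians were 0.04 over 7 T cell markers, 1.054 over 6 B and plasma cell markers, -0.02 over 10 enterocyte markers and 0.03 over 3 distal small intestine markers. Without floxed control 3 these 4 medians were 0.20, 0.963, 0.03 and 0.417. Fabp6 failed the filter and is not part of the distal small intestine medians. The first markers of these lists stood at 0.29 for Cd3d, -0.07 for Cd3e, 0.87 for Cd79a, 0.96 for Cd79b, -0.03 for Vil1, -0.02 for Alpi and 0.73 for Slc10a2. Whether cell content contributed to the values of the 9 genes was not tested, except that an enteroendocrine or a smooth muscle marker score was added as a covariate. Neither Slc16a1 nor Slc5a8 was called in those fits, and DESeq2 gave no adjusted p for the 4 receptors, whose unadjusted p-values were 0.195 or higher.

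Slc16a1 and Slc5a8 alone averaged at least 50 normalized counts, and the genes whose levels followed them most closely over the 8 libraries were looked up among 10225 genes of that abundance. The profile of Slc16a1 was most like those of Srpk1, an SR protein kinase (Pearson's r = 0.991), Pdhb, a subunit of pyruvate dehydrogenase (r = 0.965), and Sepsecs (r = 0.959). All 3 were highest in floxed control 4 and lowest in floxed control 3, as Slc16a1 was. The profile of Slc5a8 was most like those of Parp14 (r = 0.97), Stat6, a transcription factor of interleukin-4 signaling (r = 0.959), and Gsr, glutathione reductase (r = 0.956). Parp14 and Stat6 were highest in floxed control 3 and lowest in floxed control 1, as Slc5a8 was, while Gsr was lowest in floxed control 1 and highest in Adipoq-F2-KO 2. These correlations are descriptions over 8 libraries that also share depth and tissue content, and the best of 10225 genes is high by selection.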

How the data were processed

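The deposited values are raw read counts per Ensembl gene, 1 set for each of 8 jejunal mucosa libraries (poly-A selected, stranded kit, single-end 75 bp reads). According to the submitters' processing notes, the authors trimmed reads with Trimmomatic, aligned them with STAR to GRCm38 (mm10), counted them with featureCounts and used DESeq2, and versions, annotation release and the strand and multi-mapping settings are not given in the sources used here. Of 56980 identifiers, 4907 were absent from GENCODE M21, from which symbols, exon lengths and transcript sequences were taken. Groups and replicate numbers came from sample titles. Total counts ranged from 6007654 to 21712776 per library, and 3 counts were taken as the floor.

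Testing was limited to genes that reached 10 counts in 4 or more libraries, with DESeq2 1.42.0 (R 4.3.3; genotype only, two-sided Wald test, Benjamini-Hochberg adjustment over all 15986 tested genes). DESeq2 gave no adjusted p for 8 tested genes, which were left as missing. Normalized counts are counts divided by DESeq2 size factors. Single values were compared by exact permutation of log2(normalized count + 1) over 70 arrangements. edgeR 4.0.16 and limma 3.58.1 served as alternatives, beside other scaling, filters, covariates, left-out libraries and a replicate block. Fits were tested on simulated data. Each library was taken as 1 mouse, with 4 per genotype.

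Named were all 9 genes, from each pathway list the genes past the threshold or otherwise those with the 2 smallest p-values plus the most abundant, from marker lists the first 2, and for well-measured members the 3 most correlated genes. Hcar1, Sucnr1, Olfr78, Slc5a12, Insl5 and Hoxd13 lie outside this rule and were chosen after their values were seen. Results for 2 genes that the rule names are not reported here. The members, lists and tests were chosen with earlier results of these data known.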

Additional observations from a re-analysis of the deposited data

Results flagged for a closer look

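Among 18 sets of 4 libraries (9 genes in each genotype), 1 held a value far from the others by Dixon's criterion, where chance gives about 1 in 20. Hcar2 had a normalized count of 4.18 in floxed control 3 against 0.606 to 1.054 in the other floxed controls, a gap of 0.875 of the range, above the 95% limit for 4 values. The value rests on 2 reads in the library with the fewest counts.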

How the results depend on the processing

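Each of the 6 tested genes was refitted under up to 17 alternatives, and 93 of 99 such values kept their direction and were not called. The 6 that changed sign were Ffar1 at 0.017 with limma-voom, 0.082 without the libraries under 10000000 counts, 0.127 without floxed control 3, 0.024 without floxed control 4 and 0.204 without Adipoq-F2-KO 1, and Slc16a1 at 0.026 without floxed control 4. No member was called under any alternative, and for 16 of the 99 values DESeq2 gave no adjusted p. Leaving out 1 library at a time gave log2 fold changes from 0.05 to 0.33 for Ffar2, 0.34 to 0.82 for Ffar3, -0.28 to 0.20 for Ffar1, 0.05 to 0.63 for Ffar4, -0.26 to 0.03 for Slc16a1 and 0.16 to 0.76 for Slc5a8. The count of genes called over the whole table moved more, from 6 to 2 with edgeR, 1 with limma-voom, 3 without a filter, 16 with a smooth muscle score, 18 with an enteroendocrine score and 81 without the libraries under 10000000 counts, and from 1 to 108 when 1 library was left out (1 without floxed control 1, 2 without floxed control 4, 18 without floxed control 2 and 108 without floxed control 3); the cause was not tested. With the replicate block 11 genes were called and none of the 9. The replicate numbers of the sample titles did not pair the libraries, since the correlations of same-numbered deviations were 0.542, 0.294, 0.011 and -0.423. Not every library correlated best with its own number. The deposited names number the libraries otherwise, and pairing by those numbers was not tested. In the libraries over 10000000 counts, added after seeing the data, 3 of the 9 genes did not overlap (Hcar2, Gpbar1 and Slc5a8), against 1 in all libraries and with TMM scaling, where the share of all tested genes without overlap was 23.6% in the former and 2.12% in all libraries. With the longest transcript as length, Ffar2 stood at 0.297 and Ffar3 at 0.979 RPKM and the other levels did not move. The receptor values rest on few reads, at 43 to 137 for all 7 in a library.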
